A study of Mus musculus with 9 samples.

Results

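The 6 thymus lymphomas of the series fell into 2 sets by their raw read count of Trdc, the constant region of the T cell receptor delta chain. Lymphomas 56 and 86 had 1000 or more Trdc reads and are called Trdc-high, and lymphomas 34, 53, 70 and 72 had fewer than 100 and are called Trdc-low. They make up 6 of the 9 libraries of the series, which measured RNA by sequencing transcript 3′ ends. All 6 are, per the labels, T cell lymphoma cells induced by MYCN, a transcription factor of the MYC family, taken from the thymus of C57BL/6J mice. The other 3 libraries are CD4+ T cells from C57BL/6J spleen and are printed as control levels. These libraries also held reads of Cd8a and of B cell markers, given below, so a level printed for CD4 cells is that of the whole library. The labels give no age, treatment, batch, promoter or driver for the MYCN allele, do not say whether a library is a single tumour or whether the lymphomas arose separately, and do not divide the lymphomas. The members of each set were chosen by measured Trdc counts, so the sets are not conditions of the study, and p-values measure only the spread between these libraries.

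T cells carry either an alpha-beta or a gamma-delta receptor, each assembled in the thymus by joining V, D and J segments to a constant region. The delta locus lies inside the alpha locus and is cut out when alpha segments join, so Trdc is usually lost from a chromosome that has rearranged its alpha locus. Gamma-delta thymocytes are known for the factors Sox13, Etv5, Id3 and Zbtb16. Alpha-beta thymocytes pass through a stage that carries the coreceptors CD4 and CD8.

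Trdc (chr14:54142851-54148868, plus strand, GRCm38) had 4351 and 3600 reads in lymphomas 56 and 86, against 3, 3, 6 and 9 in lymphomas 34, 53, 70 and 72. These are the values that chose the sets, and no lymphoma lay between them. The CD4 libraries had 156, 151 and 173. Trac, the alpha constant region, was read in all 6 lymphomas, with 4432 and 3242 reads in 56 and 86 and 10810 to 15601 in the Trdc-low lymphomas. The Trdc-high libraries therefore held alpha and beta constant region reads as well as delta reads. Trbc1 had 8475 and 6071 reads in 56 and 86, 23847, 29979 and 24355 in 34, 70 and 72, and 56 in lymphoma 53. Lymphoma 53 had 39711 reads of the neighbouring Trbc2, the most of any library. The gamma constant region Tcrg-C4 stood at 1033 and 830 CPM in 56 and 86 and at 197 to 643 CPM in the Trdc-low lymphomas, where CPM is counts per 1000000 after TMM scaling. T cell receptor rows are described here and were not used as outcomes.

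**Figure D1:**
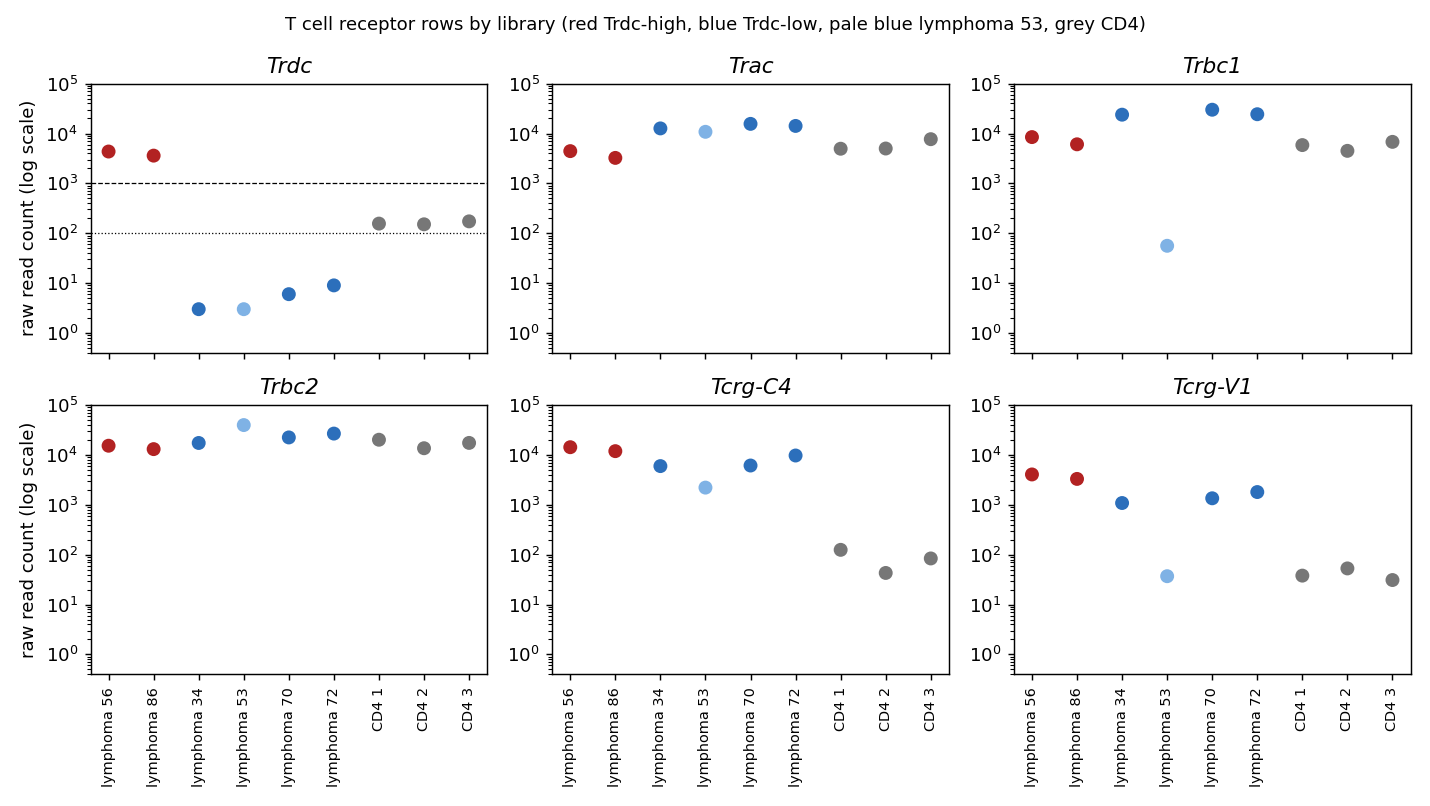
Raw read counts of 6 T cell receptor rows in each library, on a log axis; each point is a library, and the dashed and dotted lines in the Trdc panel mark 1000 and 100 reads. Lymphomas 56 and 86 lie above 1000 Trdc reads, the 4 Trdc-low lymphomas at 3 to 9, and lymphoma 53 alone has 56 Trbc1 reads.

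V segment reads were few, and some segments were shared between libraries. Lymphomas 34, 70 and 72 shared Trav8-1 (84 of 100, 72 of 92 and 78 of 92 Trav reads) and Trbv12-1 (66 of 84, 45 of 73 and 47 of 87 Trbv reads) as the most used segments. Lymphoma 53 had 18 Trav reads, mostly Trav12-2, and 9 Trbv reads. Lymphomas 56 and 86 had 0 Trbv reads, which allows at most 3. They held 15 and 7 Trdv reads, all of Trdv2-2, and Tcrg-V1 was their most used gamma segment (61.9% of 6565 and 64.1% of 5156 gamma V reads; Wilson 95% intervals 60.7 to 63.0% and 62.8 to 65.4%). Tcrg-V1 was also the most used gamma segment in Trdc-low lymphomas 34, 70 and 72, at 58.96%, 51.35% and 57.35% of gamma V reads. In lymphoma 53 it was Trgv2. Intervals and floors cover counting error only. Whether libraries that share segments share an origin was not tested.

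Gene reads numbered 11170704 to 15769679 per lymphoma and 8099960 to 10808828 per CD4 library. Lymphoma 53 had the fewest of the 6 and the lowest share of reads in genes, 38.7%, against 43.6 to 49.1% in the others. Across the tested genes, log2 CPM of lymphoma 53 correlated at 0.875 to 0.893 with the other lymphomas, while all other pairs lay between 0.932 and 0.979. As a description over genes, which are not independent, r was 0.952 between 56 and 86 and 0.932 to 0.949 between either of them and 34, 70 or 72. Among 34, 70 and 72, r was 0.979 between 70 and 72, 0.946 between 34 and 70 and 0.942 between 34 and 72. Lymphoma 34 thus correlated no less with Trdc-high lymphoma 56, at 0.949, than with 70 or 72. The comparison was made with lymphoma 53 and again without it, by a rule on its Trbc1 count (under 100 reads) and not on these values.

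Across all 6 lymphomas Crtam and Fam174b were lower in the Trdc-high libraries, and no gene was higher. Crtam encodes an immunoglobulin-family surface receptor of activated cytotoxic T and NK cells, and Fam174b a membrane protein. These were the only calls among 14837 tested genes outside the receptor loci, 0.0135% of them (edgeR's quasi-likelihood test, Benjamini-Hochberg adjusted p under 0.05). Before adjustment, 937 genes (6.32%) had a p under 0.05. Both calls also held without lymphoma 53.

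Crtam (ENSMUSG00000032021, chr9:40969691-41004628, minus strand) had 2.89 and 2.58 CPM in lymphomas 56 and 86. It had 30.8, 27.9, 22.5 and 23.2 CPM in lymphomas 34, 53, 70 and 72. The sets did not overlap, and lymphoma 53 lay among the other Trdc-low libraries. The means were 2.73 ± 0.221 CPM (SD, n = 2) and 26.1 ± 3.93 CPM (SD, n = 4), and CD4 cells stood between them at 9.75 ± 0.598 CPM (SD, n = 3). The log2 fold change, Trdc-high over Trdc-low, was -3.25 (SE 0.293, edgeR adjusted p 0.0290) and without lymphoma 53 it was -3.22 (SE 0.277, adjusted p 0.000358).

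Fam174b (ENSMUSG00000078670, chr7:73740302-73776919, plus strand) had 0.795 and 0.975 CPM in lymphomas 56 and 86, from 11 and 14 reads. Lymphomas 34, 53, 70 and 72 had 14.9, 26.3, 21.1 and 26.7 CPM. All 4 Trdc-low libraries thus lay above both Trdc-high libraries, with lymphoma 53 near the top. CD4 cells had 3.68 ± 1.47 CPM (SD, n = 3). The log2 fold change was -4.64 (SE 0.413, edgeR adjusted p 0.0290), and -4.55 (SE 0.374, adjusted p 0.000293) without lymphoma 53.

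The 250 bases before the start of Fam174b, the gene with the larger of these differences, are shown from RefSeq (GRCm38.p6, chr7:73740057-73740306, plus strand, 5′ to 3′). Capitals mark GC boxes (GGGCGG on either strand), which start 72 and 36 bases before the start site.
Fam174b: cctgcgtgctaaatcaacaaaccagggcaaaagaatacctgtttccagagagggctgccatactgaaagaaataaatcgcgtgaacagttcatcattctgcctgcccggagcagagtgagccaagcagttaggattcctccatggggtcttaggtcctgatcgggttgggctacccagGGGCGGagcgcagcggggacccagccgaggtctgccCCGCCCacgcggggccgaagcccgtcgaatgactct
A GC box is held by 32.7% of the 32851 windows of this length in the table. The motif was added to the search after the sequence had been seen. The E-box CACGTG (6.02% of windows), the RUNX core TGTGGT (14%), the AP-1 motif TGANTCA (6.75%) and the GATA motif AGATAA (9.99%), each on either strand, had no match here.

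**Figure D2:**
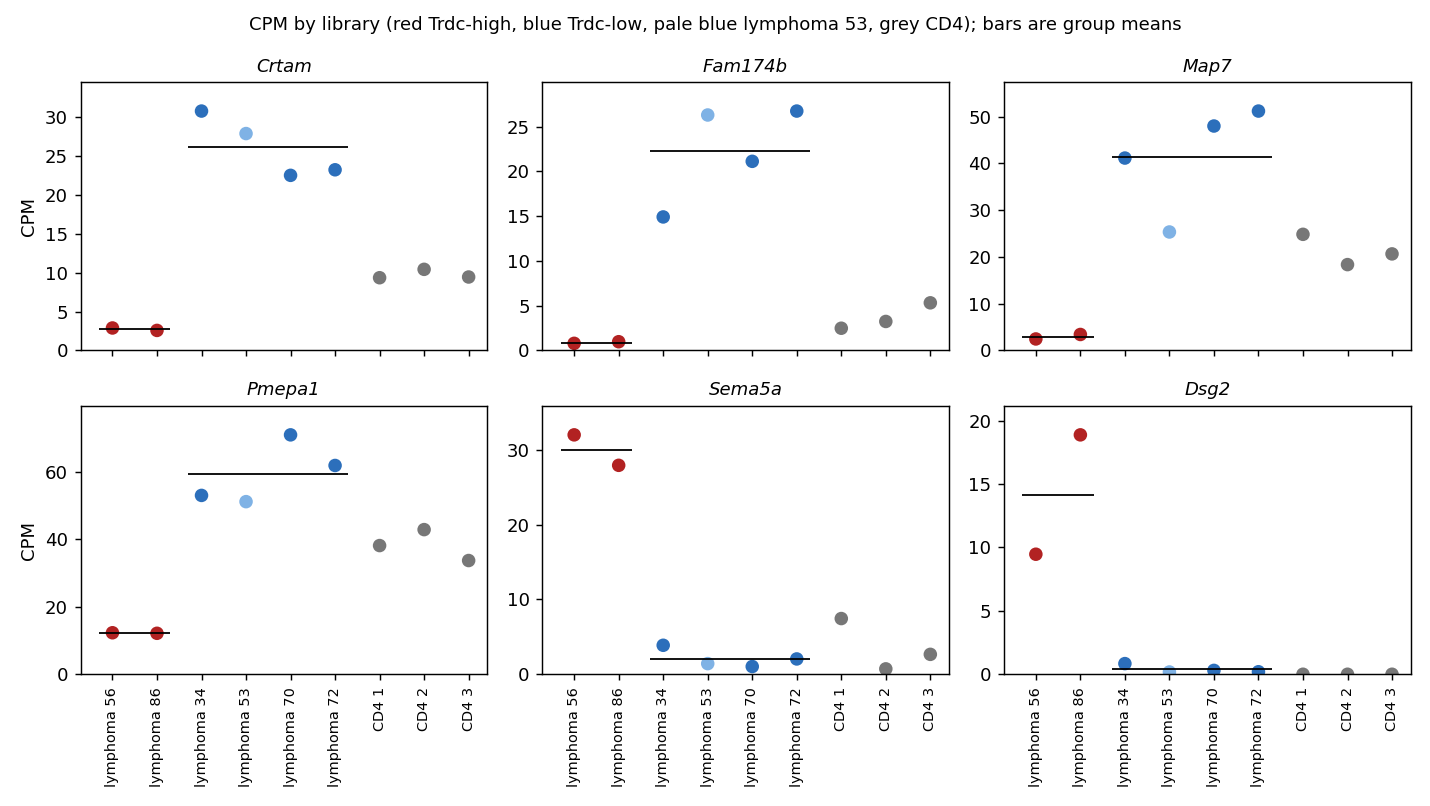
CPM by library of Crtam and Fam174b, called in all 6 lymphomas, and of 4 genes that missed the threshold. Their edgeR adjusted p values were 0.0509 for Map7 and Pmepa1 and 0.119 for Sema5a and Dsg2. Points are libraries and bars are the means of the Trdc-high and Trdc-low libraries. Crtam and Fam174b lie below 3 CPM in lymphomas 56 and 86 and above 14 CPM in the other lymphomas, lymphoma 53 included.

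The sizes of both differences were stable and their calls were not. With 1 other lymphoma left out, the log2 fold change of Crtam stayed between -3.35 and -3.16 and that of Fam174b between -4.79 and -4.51. The edgeR adjusted p values of Crtam and Fam174b were then 0.109 and 0.0507 without lymphoma 34, 0.687 and 0.687 without 56, 0.180 and 0.180 without 70, 0.116 and 0.116 without 72, and 0.932 and 0.914 without 86. With 34, 70 and 72 summed to 1 library they were 0.639 and 0.496.

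Genes that missed the threshold were examined next, chosen after their values had been seen. They had the 8 smallest p values among such genes whose sets did not overlap. Their edgeR adjusted p values ran from 0.0509 to 0.286. Lack of overlap alone was common, at 2751 genes (18.5%), 1401 higher (9.44%) and 1350 lower (9.1%). Map7, a microtubule-associated protein, had 2.46 and 3.41 CPM in 56 and 86 and 25.3 to 51.2 CPM in the Trdc-low lymphomas, and its log2 fold change was -3.81 (SE 0.399; adjusted p 0.0509 in edgeR). Pmepa1, an inhibitor of TGF-beta signalling, had 12.3 and 12.1 CPM in 56 and 86 and 51.1 to 70.9 CPM in the Trdc-low lymphomas (-2.28, SE 0.232, adjusted p 0.0509). Lymphoma 53 was the lowest Trdc-low library for both, yet lay far above 56 and 86. Without it both genes passed, with adjusted p values of 6.79e-05 for Map7 and 0.000273 for Pmepa1. Tmem121, a membrane protein, stood at 2.65 to 2.96 CPM in the Trdc-high lymphomas and 13.9 to 20.5 CPM in the Trdc-low lymphomas (adjusted p 0.119).

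The other 5 of these genes had higher values in the Trdc-high lymphomas. Sema5a, a semaphorin, had 32.0 and 27.9 CPM in 56 and 86, and 3.87, 1.42, 1.04 and 2.05 CPM in 34, 53, 70 and 72. Its log2 fold change was 3.83 (SE 0.494, edgeR adjusted p 0.119), and 3.69 without lymphoma 53 (adjusted p 0.0101). Dsg2, a desmosomal cadherin, had 9.47 and 18.9 CPM in 56 and 86, at most 0.839 CPM in the Trdc-low lymphomas and 0 reads in the CD4 libraries (adjusted p 0.119). Lingo3, a leucine-rich repeat membrane protein, had 13.4 and 20.6 CPM against 0.462 to 1.96 CPM (adjusted p 0.234). Kazn, a cytoskeletal and desmosome-linked protein, had 107 and 76 reads in 56 and 86 and 0, 0, 2 and 1 in 34, 53, 70 and 72. Nespas, an imprinted antisense RNA at the Gnas locus whose reads cannot be separated from those of the opposite strand, had 90 and 81 reads in 56 and 86 and 0 in every Trdc-low library. Against the floor of 3 reads in a library, Nespas was at least 21.2-fold higher in each Trdc-high lymphoma. Neither gene passed with all 6 lymphomas (edgeR adjusted p 0.119 for Kazn and 0.286 for Nespas). Both reached the filter's minimum count of 10 only in 56 and 86, so they could enter the test only as genes higher there. All 8 genes passed without lymphoma 53, a fit on libraries that had also served to choose them, so this is no separate support.

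Genes known from gamma-delta T cells did not separate the sets as a group. Of 28 listed genes 19 were tested, none was called in all 6 lymphomas, 10 had a fold change above 0 and 9 below, and the median log2 fold change was 0.0, against -0.03 over all tested genes. Without lymphoma 53 the list's median was -0.2, against -0.02. At an unadjusted p under 0.05, 2 were higher and 1 lower, where all genes gave 2.52% higher and 3.79% lower. Sox13 had 0.0723 and 1.74 CPM in 56 and 86 and 1.24 to 3.55 CPM in the Trdc-low lymphomas, and lymphoma 56 alone had a single read. Blk, a Src-family kinase of B cells and of some gamma-delta T cells, had 0 to 9 reads in every lymphoma, and Cd163l1, a scavenger receptor, had 0 to 9 as well. Il17a was at 0 in all 6.

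Zbtb16, which encodes the innate-like T cell factor PLZF, had 112 and 85.8 CPM in lymphomas 56 and 86 and 95.4, 139 and 107 CPM in 34, 70 and 72. Lymphoma 53 had 0.267 CPM, and CD4 cells had 4.85 ± 2.40 CPM (SD, n = 3). High Zbtb16 was thus shared by Trdc-high and Trdc-low libraries, and the fold change between the sets was 0.21 (SE 1.37, edgeR adjusted p 0.997). Id3, an inhibitor of E proteins, showed the same library apart: it had 244 and 334 CPM in 56 and 86, 238 to 260 CPM in 34, 70 and 72, and 73.3 CPM in 53.

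Etv5, an ETS factor of gamma-delta thymocytes, had 13.3 and 12.1 CPM in 56 and 86, and 4.52, 0.355, 3.96 and 2.91 CPM in 34, 53, 70 and 72. Its log2 fold change was 2.10 (SE 0.742, edgeR adjusted p 0.741), and 1.74 (SE 0.322, adjusted p 0.0262) without lymphoma 53. Etv5 was the only member of the list to pass in that second comparison, and its call held in 8 of 12 alternatives. Sox4 had 62.2 and 55.7 CPM against 79.0 to 131 CPM (-0.78, adjusted p 0.723; without lymphoma 53 -0.64, adjusted p 0.0728).

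**Figure D3:**
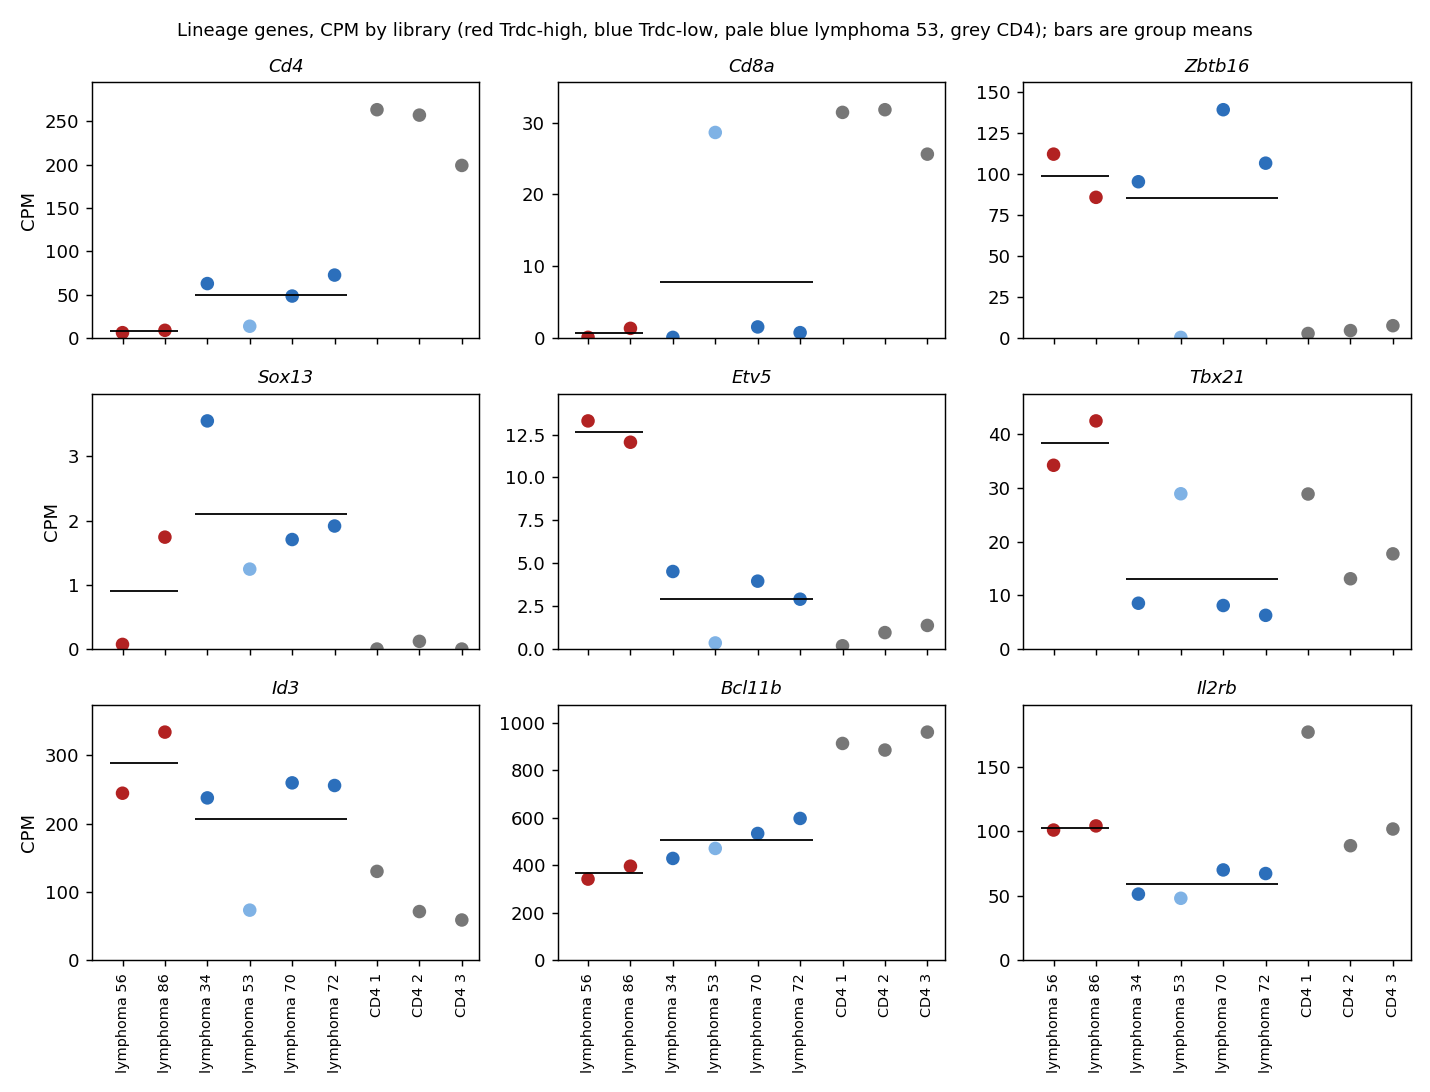
CPM by library of 9 lineage genes, with bars at the means of the Trdc-high and Trdc-low libraries. Cd4 is lowest and Etv5 highest in lymphomas 56 and 86, while Zbtb16, Id3 and Cd8a set lymphoma 53 apart from the other lymphomas.

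Among the listed CD3 chains and coreceptors, the CD3 chains were read in all lymphomas, so T cell identity was present in both sets. Cd3e, the CD3 epsilon chain, had 185 and 144 CPM in 56 and 86 and 161 to 211 CPM in the Trdc-low lymphomas, against 157 ± 30.0 CPM (SD, n = 3) in CD4 cells. Cd4 had 6.00 and 8.71 CPM in 56 and 86, 13.4 CPM in 53, and 62.7, 48.3 and 72.5 CPM in 34, 70 and 72, all below the 240 ± 35.5 CPM (SD, n = 3) of CD4 cells. The log2 fold change of Cd4 was -2.74 (SE 0.668, edgeR adjusted p 0.674), and -3.05 (SE 0.252, adjusted p 0.000297) without lymphoma 53. Cd8a was at 0.0646 to 1.52 CPM in 5 lymphomas of either set, with 1 read each in 34 and 56. It was at 28.6 CPM in lymphoma 53, close to the 29.6 ± 3.47 CPM (SD, n = 3) of the CD4 libraries. Of the 10 listed genes none passed with all 6 lymphomas, and Cd4 alone passed, as lower, without lymphoma 53.

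Factors of alpha-beta lineage and selection gave no call among 22 tested genes, with 15 of 22 fold changes below 0 and a median of -0.22 (-0.24 without lymphoma 53). Bcl11b, a factor of T cell commitment, had 341 and 396 CPM in 56 and 86 and 428 to 597 CPM in the Trdc-low lymphomas (log2 fold change -0.46, SE 0.195, edgeR adjusted p 0.775; without lymphoma 53 -0.49, adjusted p 0.149). Runx3, a factor of CD8 and innate lineages, had 71.3 and 38.3 CPM against 104 to 148 CPM (-1.20, adjusted p 0.674; without lymphoma 53 -1.22, adjusted p 0.0880). Tox2 had 0.289 and 1.32 CPM against 3.87 to 41.7 CPM, with lymphoma 53 the highest. Ikzf3, which encodes Aiolos, was the list's only call without lymphoma 53: it had 103 and 119 CPM in 56 and 86 and 63.9 to 74.7 CPM in 34, 70 and 72 (0.67, adjusted p 0.0404). Lymphoma 53 had 159 CPM of Ikzf3, so the sets overlapped with it included, and the call held in 6 of 12 alternatives (adjusted p up to 0.286). Rag1, the recombinase, had 0 to 2 reads in each lymphoma.

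Of the 26 genes induced by receptor signalling, all were tested and none was called with all 6 lymphomas. A log2 fold change below 0 was found for 21 of them, beside 7897 of all 14837 genes, and the median was -0.60 (-0.68 without lymphoma 53). At an unadjusted p under 0.05, 7 were lower and 1 higher, where all genes gave 3.79% lower and 2.52% higher. Nr4a1, an early target of receptor signals, had 38.4 and 40.6 CPM in 56 and 86 and 76.5, 73.7, 89.1 and 101 CPM in 34, 53, 70 and 72, with a log2 fold change of -1.11 (edgeR adjusted p 0.424). Without lymphoma 53 it was -1.17 (adjusted p 0.00553). Nr4a2 had 26.1 and 21 CPM against 50.2, 32.8, 62.5 and 88.2 CPM (-1.31, SE 0.391, adjusted p 0.704), and passed without lymphoma 53 (-1.51, adjusted p 0.0160). These were the list's only calls in that comparison, which called 1.19% of all tested genes as lower. Dusp2, a phosphatase of ERK, went the other way, with 349 and 435 CPM against 179 to 273 CPM (0.68, adjusted p 0.735; without lymphoma 53 0.55, adjusted p 0.0781). Summed over the list the sets overlapped, at 825 and 877 CPM against 753 to 1030 CPM.

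The 30 proximal signalling genes gave no call in either comparison, and their median log2 fold change turned from -0.09 with all 6 lymphomas to 0.09 without lymphoma 53. Lck, the receptor's first kinase, had 410 and 357 CPM in 56 and 86 and 439 to 739 CPM in the Trdc-low lymphomas (-0.67, edgeR adjusted p 0.741; without lymphoma 53 -0.56, adjusted p 0.136).

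Cytotoxic and NK genes gave no call over 15 tested genes in all 6 lymphomas, and 2 higher calls without lymphoma 53. That second comparison called 0.628% of all tested genes as higher. With all 6 lymphomas 10 of the 15 lay above 0 and 5 below. The median was 0.13 (0.35 without lymphoma 53), against -0.03 (-0.02) over all tested genes. Summed over the list the sets overlapped, at 880 and 867 CPM in 56 and 86 against 551 to 1035 CPM, with lymphoma 53 the highest. Tbx21, which encodes T-bet, had 34.2 and 42.4 CPM in 56 and 86, 28.9 CPM in 53 and 8.52, 8.10 and 6.27 CPM in 34, 70 and 72. Its log2 fold change was 1.57 (SE 0.589, edgeR adjusted p 0.741) in all 6 and 2.33 (SE 0.223, adjusted p 0.000755) without lymphoma 53, which itself lay near the Trdc-high libraries. Il2rb, the beta chain of the IL-2 and IL-15 receptors, had 101 and 104 CPM in 56 and 86 and 51.3, 48.1, 70.1 and 67.3 CPM in 34, 53, 70 and 72 (0.79, SE 0.210, adjusted p 0.674). Here lymphoma 53 lay with the Trdc-low libraries, and without it the change was 0.71 (adjusted p 0.0484), a call held in 5 of 12 alternatives (adjusted p up to 0.272). The effector genes Gzmb, Gzmc and Ncr1 were at 0 in all 6 lymphomas. Fasl had 0 and 0.627 CPM in 56 and 86, 0.800 CPM in 53 and 6.39 to 10.1 CPM in 34, 70 and 72.

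The 27 tested cytokine receptor genes gave 1 call, Il2rb, and only without lymphoma 53. Il7r, the IL-7 receptor, had 36.8 and 9.34 CPM in 56 and 86 and 13.1 to 65.1 CPM in the Trdc-low lymphomas, all far below the 480 ± 65.9 CPM (SD, n = 3) of CD4 cells.

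Summed over 24 homing and adhesion genes, the Trdc-high lymphomas had 1827 and 1571 CPM and the Trdc-low lymphomas 1201 to 1486 CPM, without overlap. Taken singly, 9.44% of all tested genes were likewise higher without overlap. The median over the 22 tested members of the homing list was -0.09 with all 6 lymphomas, with 10 above and 12 below 0. It was 0.18 without lymphoma 53, so the sign of the median turned. Itga4, an integrin chain, had 304 and 316 CPM in 56 and 86 and 130 to 246 CPM in the Trdc-low lymphomas (log2 fold change 0.88, edgeR adjusted p 0.728; without lymphoma 53 0.78, adjusted p 0.157). Cxcr3, a receptor for interferon-induced chemokines, had 25.7 and 45.6 CPM against 1.65 to 18.6 CPM (1.90, adjusted p 0.761; without lymphoma 53 2.07, adjusted p 0.467). Ccr4 was lower without lymphoma 53 (-1.61, adjusted p 0.0144), and lymphoma 53, at 7.38 CPM, lay below 56 and 86, at 11.6 and 9.27 CPM.

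Ribosome biogenesis genes had higher values in the Trdc-high lymphomas without a call. All 25 had a fold change above 0 in the Trdc-high lymphomas, 6 of 25 at an unadjusted p under 0.05, and none was called with all 6. Over all 14837 genes, 6940 lay above 0 and 2.52% were higher at that p. The median log2 fold change was 0.31, and 0.49 without lymphoma 53, where 0.628% of all tested genes were called higher. Summed over the list, lymphomas 56 and 86 had 11905 and 13919 CPM and the Trdc-low lymphomas 8301 to 9652 CPM, lymphoma 53 included at 9232. Nucleophosmin, Npm1, had 2557 and 2901 CPM in 56 and 86 and 1507 to 1815 CPM in the Trdc-low lymphomas (0.68, edgeR adjusted p 0.674), and 0.71 (adjusted p 0.0261) without 53. Utp20, of the small-subunit processome, had 78.3 and 108 CPM against 58.6, 38.9, 55.5 and 48.5 CPM (0.88, SE 0.228, adjusted p 0.674), and 0.78 (adjusted p 0.0470) without 53. Npm1 and Utp20 were the list's only calls without lymphoma 53, and that of Utp20 held in 5 of 12 alternatives (edgeR, DESeq2 or limma adjusted p up to 0.365). Of the 19 lists, 2 had summed levels higher in both Trdc-high libraries than in every Trdc-low library, and 2 had lower ones, the B cell and stromal markers. Taken singly, 9.44% of all tested genes were higher without overlap and 9.1% lower, so such separation of the sets was common.

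Proliferation genes had a median of 0.18 (0.21 without lymphoma 53) over 30 members, 25 of them above 0, and gave no call in either comparison. Ezh2, the histone methyltransferase named by the series, did not separate the sets: it had 453 and 465 CPM in 56 and 86 and 431 to 518 CPM in the Trdc-low lymphomas (log2 fold change -0.05, SE 0.167, edgeR adjusted p 0.990; without lymphoma 53 -0.09, adjusted p 0.775). A p above the threshold does not show equal levels. None of 14 PRC2 genes was called with all 6 lymphomas. Lcorl was lower without lymphoma 53 (-0.95, adjusted p 0.0315), where lymphoma 53 had 28.2 CPM, beside 37.1 and 27.6 CPM in 56 and 86.

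Among immature thymocyte genes 18 were tested, and their median was -0.61 (-0.68 without lymphoma 53), with 12 below 0 and no call in either comparison. Hes1, a Notch target, had 0.939 and 0.906 CPM in 56 and 86 and 2.07, 20, 6.52 and 7.26 CPM in 34, 53, 70 and 72 (log2 fold change -3.26, edgeR adjusted p 0.700; without lymphoma 53 -2.50, adjusted p 0.0722). Interferon-stimulated genes had a median of -0.61 (-0.47 without lymphoma 53) over 28, with 21 below 0 and no call. Of the 23 factors known as T cell leukaemia oncogenes 7 were tested and none was called. Igf2bp3, an RNA-binding protein, passed without lymphoma 53 at -1.01 (adjusted p 0.0134), with 29.6 and 29.4 CPM in 56 and 86, 51.9 to 65.4 CPM in 34, 70 and 72, and 5.33 CPM in 53.

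Without lymphoma 53, the comparison set lymphomas 56 and 86 against 34, 70 and 72, which share their V segments. It called 264 of 14488 genes (1.82%), 91 higher (0.628%) and 173 lower (1.19%) in the Trdc-high lymphomas by edgeR at an adjusted p under 0.05. Of these, 192 differed by 2-fold or more. Both comparisons share 5 libraries, so a gene that passes in both is not thereby backed by separate data. The biological coefficient of variation was 0.317, against 0.47 with lymphoma 53. The count was 886 without lymphoma 34, 65 without 70, 76 without 72, 98 without 56 and 66 without 86.

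The 8 largest falls and 8 largest rises of this comparison, among genes averaging 3 or more in log2 CPM whose 2 sides did not overlap, were chosen after the values had been seen. Among the falls, Grm4, a metabotropic glutamate receptor, had 1.88 and 1.05 CPM in 56 and 86 and 34.2, 56 and 69.9 CPM in 34, 70 and 72, and its log2 fold change was -5.18 (SE 0.416; adjusted p 0.000948 in edgeR). Lymphoma 53 had 3.47 CPM, near the Trdc-high libraries. Slc1a6, a glutamate transporter, had 1.81 and 0.348 CPM against 43.1, 47.5 and 61.0 CPM (-5.55, SE 0.568, adjusted p 0.0106), and 0.267 CPM in 53. Both genes were nearly absent from CD4 cells, at 0.0637 and 0.0800 CPM in the mean.

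Lgi2, a secreted leucine-rich repeat protein, had 0.361 and 0.488 CPM in 56 and 86, 20.9 to 35.6 CPM in 34, 70 and 72 and 3.38 CPM in 53. Srgap3, a GTPase-activating protein, and Ptpru, a receptor tyrosine phosphatase, were at 0.267 and 0.0889 CPM in 53, below 1.3 CPM in 56 and 86, and at 8.45 CPM or more in 34, 70 and 72. Mcf2l, a guanine nucleotide exchange factor, differed from these: lymphoma 53 had 30.8 CPM, with 8.77 to 27.6 CPM in 34, 70 and 72 and 2.10 and 1.18 CPM in 56 and 86. Fam174b and Map7, described above, completed the 8 falls.

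Among the rises, Prdm16, a zinc-finger transcription factor, had 75.3 and 75.4 CPM in 56 and 86 and 1.36, 0.244 and 0.198 CPM in 34, 70 and 72 (log2 fold change 6.96, SE 0.650, edgeR adjusted p 0.0147). Lymphoma 53 had 33.1 CPM of Prdm16, which left the sets without overlap but the change with all 6 at 3.13 (adjusted p 0.827). Tyk2, a Janus kinase, had 115 and 99.6 CPM in 56 and 86, 25.1 to 29.9 CPM in 34, 70 and 72 and 83.7 CPM in 53. Capn2, a calpain, had 18.9 and 18.7 CPM, 2.31 to 3.94 CPM and 19.7 CPM in the same order, so lymphoma 53 exceeded both Trdc-high libraries. Izumo1r, the folate receptor 4 of regulatory and anergic T cells, had 66.6 and 29.3 CPM, 8.52 to 11.6 CPM and 39.6 CPM.

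In contrast, 3 of the 8 rises left lymphoma 53 with the Trdc-low libraries: Sema5a, Fbn2 and Appl2. Fbn2, a microfibril protein, had 44.5 and 28.6 CPM in 56 and 86, 3.90 to 7.75 CPM in 34, 70 and 72 and 0 reads in 53. Appl2, an endosomal adaptor, had 25 and 24.6 CPM against 3.30 to 9.75 CPM, and 5.15 CPM in 53. Tbx21 completed the 8 rises.

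**Figure D4:**
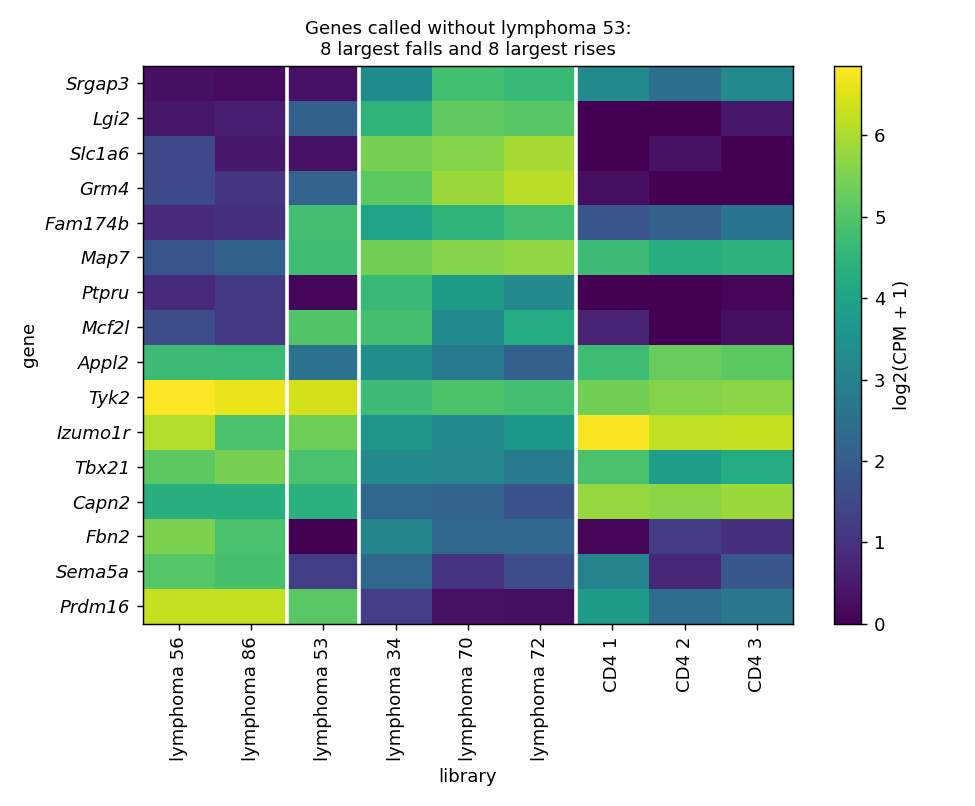
Log2(CPM + 1) of the 8 largest falls and 8 largest rises called without lymphoma 53, with genes in rows and libraries in columns; white lines separate lymphomas 56 and 86, lymphoma 53, lymphomas 34, 70 and 72, and CD4 cells. Lymphoma 53 resembles 56 and 86 at Srgap3, Slc1a6, Tyk2, Capn2 and Prdm16, and 34, 70 and 72 at Fam174b, Map7, Mcf2l, Appl2 and Sema5a.

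Lymphoma 53 took no part in that comparison, so its own level at the 264 genes was compared with the means of log2 CPM on either side. It lay nearer to the mean of 56 and 86 at 174 genes (65.9%) and nearer to that of 34, 70 and 72 at 90, although its Trdc count placed it with the latter. Over all 14488 tested genes the share nearer to 56 and 86 was 53.8%. Of the 91 genes higher in the Trdc-high lymphomas, 55 had lymphoma 53 nearer to 56 and 86, and of the 173 lower genes 119 did. By range, lymphoma 53 reached or passed the Trdc-high libraries at 118 genes, reached or passed 34, 70 and 72 at 60, and fell between at 86. No count by range was made over all tested genes. Lymphoma 53 lay beyond the mean of 56 and 86 at 102 of the 264 genes, and at 6600 of all 14488. It lay beyond the mean of 34, 70 and 72 at 45 of the 264, and at 5534 of all 14488. Nearer to a side thus often meant past it. The mean of CD4 cells was nearer to 56 and 86 at 116 of the 264 genes (43.9%), against 38.8% of all tested genes.

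**Figure D5:**
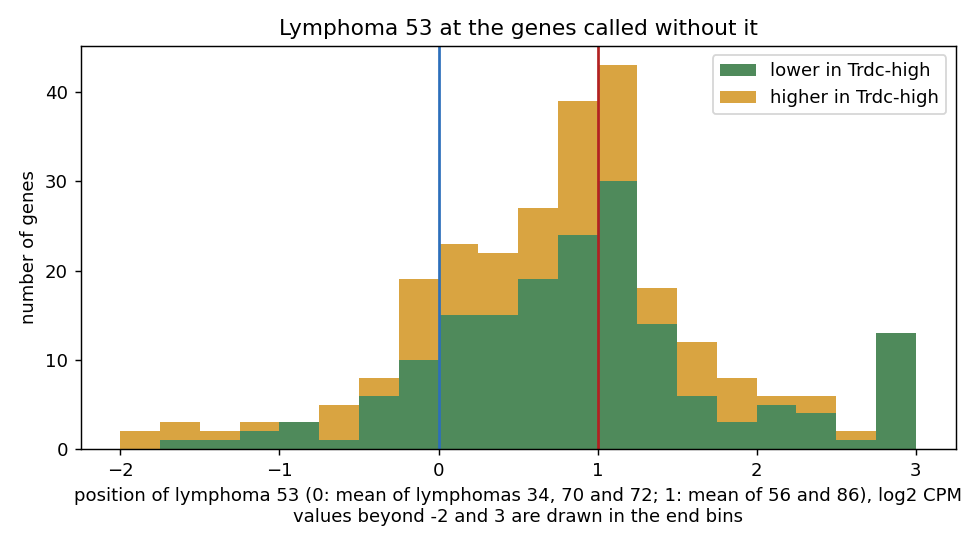
Number of the 264 genes by the position of lymphoma 53 in log2 CPM, where 0 is the mean of lymphomas 34, 70 and 72 and 1 that of 56 and 86; colours give the direction of the difference. The 174 genes above 0.5 are those at which lymphoma 53 lay nearer to 56 and 86.

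Markers of other cell types were read in every lymphoma at levels that differed by type. Fewer cells of a type and less RNA per cell cannot be told apart in such bulk libraries. Nor can reads from other cells be told from reads of the same genes in the lymphoma cells or, in the CD4 libraries, in the CD4+ T cells. The 12 B cell markers summed to 23.6 and 31.2 CPM in 56 and 86, 35.1 to 39.2 CPM in 34, 70 and 72 and 63.2 CPM in 53, against 2109 to 2276 CPM in CD4 libraries. The 16 myeloid markers summed to 2315 and 299 CPM in 56 and 86 and to 1578, 328, 107 and 99 CPM in 34, 53, 70 and 72, so both sets held a high library, and CD4 libraries had 1045 to 1274 CPM. The 16 stromal and thymic epithelial markers summed to 115 and 101 CPM in 56 and 86 and 133 to 197 CPM in the Trdc-low lymphomas (229 to 254 CPM in CD4 libraries), with Lum and Cdh5 at 0 in all 6. Erythroid markers summed to 192 and 232 CPM in the Trdc-high and 144 to 231 CPM in the Trdc-low lymphomas, above the 47.3 to 55.1 CPM of CD4 libraries. Of the 9 erythroid genes summed, 4 were under 1 CPM in all 6 lymphomas. Plasmacytoid dendritic cell markers summed to 123 and 129 CPM in 56 and 86, 120 to 154 CPM in 34, 70 and 72 and 397 CPM in 53, against 815 to 880 CPM in CD4 libraries. No member of these lists was called with all 6 lymphomas, and Hemgn, an erythroid gene, was lower without lymphoma 53 (log2 fold change -1.57, edgeR adjusted p 0.00959). The part of these cells in the results was not tested.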

How the data were processed

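RNA from 6 lymphomas and 3 CD4 libraries was sequenced at transcript 3′ ends. The deposited table holds raw read counts for 46078 genes and 5 closing summary rows, per the file headers. FastQC, HISAT2, SAMtools, HTSeq and the builds mm10 and GRCm38 are named in the submitters' processing notes. Their versions and the strand setting are not given in the sources used here. The closing summary rows stayed out of library sizes and tests, which left 27.8 to 49.1% of reads in genes.

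The lymphomas were divided by raw Trdc count (1000 or more, under 100), and the library with under 100 Trbc1 reads, lymphoma 53, was left out in a second fit. Counts were filtered with filterByExpr (minimum count 10), scaled with TMM and tested with edgeR 4.0.16 (glmQLFit, robust, and glmQLFTest) in R 4.3.3, without covariates, with Benjamini-Hochberg adjustment over 14862 and 14513 genes and a threshold of 0.05. T cell receptor rows and Ptcra stayed in the fit and are not counted among calls. The SE is the absolute log2 fold change over the square root of F. CD4 libraries were scaled to the same reference library. Log2 CPM used a prior count of 2. An exact permutation of 2 against 4 libraries cannot go below 0.0667, so none was used.

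The groups, the 19 gene lists and the rules were chosen with earlier results of these data known. Named are 12 fixed genes (1 more is not reported here), the largest rise and fall called in each list, and up to 8 rises and 8 falls called in both fits averaging 3 or more in log2 CPM without overlap of the sets, predicted, receptor, immunoglobulin and sex-linked genes left out. As only 2 genes passed, the rule was applied after seeing the data to the fit without lymphoma 53 alone. The 8 smallest p values among genes that missed the threshold without overlap, and further list members, were named after their values had been seen. Coordinates are from GENCODE M21 (GRCm38), matched by ID for 45229 genes. Alternatives used DESeq2 1.42.0 and limma 3.58.1, among others.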

Additional observations from a re-analysis of the deposited data

Results flagged for a closer look

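Within the 4 Trdc-low lymphomas, 14 of 65 examined values had 1 library set apart from the other 3 by more than Dixon's 95% criterion for 4 samples allows. Chance alone flags about 1 in 20, or 3.25 of 65 independent values. That is no comparison here, since many of these genes were named for being called without lymphoma 53, which favours close values in 34, 70 and 72. In 12 of the 14 the library apart was lymphoma 53.

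Lymphoma 53 was the highest Trdc-low library for Capn2 (19.7 CPM, others 2.31 to 3.94), Cd8a (28.6 CPM, others 0.0646 to 1.52) and Ikzf3 (159 CPM, others 63.9 to 74.7). It was also highest for Izumo1r (39.6 CPM, others 8.52 to 11.6), Prdm16 (33.1 CPM, others 0.198 to 1.36), Tbx21 (28.9 CPM, others 6.27 to 8.52) and Tyk2 (83.7 CPM, others 25.1 to 29.9). Id3 was lowest there, at 73.3 CPM against 238 to 260. The 6 genes other than Cd8a and Id3 were named for being higher in the Trdc-high lymphomas without lymphoma 53, so that lymphoma 53 stands apart there follows in part from that choice.

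Summed B cell markers stood at 63.2 CPM in lymphoma 53 (others 35.1 to 39.2) and summed plasmacytoid dendritic cell markers at 397 CPM (others 120 to 154). Its gene reads numbered 11170704 (others 15007596 to 15769679), and 38.7% of its reads lay in genes (others 43.6 to 44.4%). Lymphoma 34 stood apart by the summed CD3 and coreceptor genes, at 1280 CPM (others 1528 to 1577), and by summed myeloid markers, at 1578 CPM (others 99 to 328).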

How the results depend on the processing

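With all 6 lymphomas edgeR called 2 genes, 0 higher and 2 lower. That count was 4, all lower, with RLE size factors, upper quartile scaling, library size alone, or at least 10 counts in every lymphoma, where Map7 and Pmepa1 also passed. It was 14 (6 higher, 8 lower) with no filter on low counts, 114 (25 higher, 89 lower) with DESeq2, and 7 (1 higher, 6 lower) with the CD4 libraries in the fit. It was 0 at an adjusted p under 0.01, 0 with limma voom (868 genes at an unadjusted p under 0.05) and 0 with lymphomas 34, 70 and 72 summed to 1 library (466 genes). It was also 0 with lymphomas 56 and 86 summed as well (121 genes), an alternative chosen after seeing the data. The adjusted p of Crtam and Fam174b was 0.149 and 0.562 with limma voom and 1 for both with both sums. With 1 lymphoma left out the count ran from 0 to 264, with 0 to 91 higher and 0 to 173 lower; it was 264 without lymphoma 53 and 0 without any other, where 414 to 901 genes had an unadjusted p under 0.05. Where lymphoma 56 or 86 was left out, the remaining Trdc-high library was assumed to vary like the others.

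Without lymphoma 53 the count was 264 (91 higher, 173 lower). It was 62 (17 and 45) at an adjusted p under 0.01, 1275 (544 and 731) with no filter, 1007 (466 and 541) with DESeq2 and 85 (43 and 42) with limma voom. Library size alone gave 293, with 60 higher. A further lymphoma left out gave 65 to 886, with 21 to 392 higher and 39 to 494 lower. Of the 264 genes, DESeq2 also called 264 and limma voom 82. Among the named genes, the calls of Lcorl and Ccr4 held in 7 of 12 alternatives. Those of Etv5, Nr4a2, Igf2bp3, Appl2 and Mcf2l held in 8 of 12. Those of Crtam, Fam174b, Map7, Cd4, Grm4, Fbn2, Capn2, Tbx21 and Tyk2 held in all 12. None of the 12 summed lymphomas 34, 70 and 72, which share V segments, so each of them still counted as a separate library. That sum was run only with all 6 lymphomas.

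The sign of some differences that missed the threshold turned. With 1 lymphoma left out, Il7r became 0.009841 without 53 and ranged from -1.839 without 56 to 0.1482 without 86. Zbtb16 then ranged from -0.1993 without 53 to 0.5488 without 70, with -0.01286 without 56, and was 1.671 with limma voom. Cd3e ranged from -0.3175 without 56 to 0.04633 without 86. Ikzf3 became -0.03936 with 34, 70 and 72 summed and -0.0164 with both sums, and Ezh2 became 0.009778 with both sums. The cause was not tested. No paired analysis was possible because the library numbers are not shared between the sets. The number of libraries, 2 of them Trdc-high, limits the precision. The effect of depth was not tested.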
